A study of Homo sapiens with 52 samples.

Results

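Homologous recombination copies an intact sister sequence to mend a broken chromosome, and the Fanconi anaemia pathway unhooks DNA strands that are linked to each other and hands the break to recombination. Here 37 genes of the human repair machinery were followed, chosen by symbol, with earlier results of these data known. The tables list 59408 genes, of which 14898 were tested because their normalized counts averaged 10 or more across the 26 groups, among them 36 of the 37. The gene left out was MDC1, the adaptor that docks repair proteins on marked chromatin, whose mean was 4.55 normalized counts. MDC1 was listed at 5.96 in untreated cells and at 1.74 to 13.3 in the treated groups.

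The cells were WI-38, a fibroblast line from normal human lung that stops dividing after a limited number of doublings, and mRNA was sequenced from 2 libraries per group. PMD-Sen (plasma membrane damage) cells had been held in 0.009% sodium dodecyl sulfate (SDS), a detergent, for 24 h. Ca2+-Sen cells had been held in 75 mM KCl, which depolarizes the membrane and lets calcium in, and DDR-Sen (DNA damage response) cells in 250 nM doxorubicin (DXR), a topoisomerase poison that breaks DNA, both for 24 h. Each was then washed and collected daily from day 0 to day 4 and then on days 6, 8 and 16, where day 0 is the end of the treatment, and all lists of levels below follow that order of days. Cells in replicative senescence (RS) had reached a population doubling level (PDL) of about 52 with no inducer, and untreated cells had a PDL of 32 to 46. RS thus also differs from the untreated cells in its number of doublings. All groups are from a single cell line, so the libraries carry no variation between donors.

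In background, BRCA1 and BARD1 act at the break together with BRIP1, PALB2 bridges BRCA1 to BRCA2, and BRCA2 acts on the resected DNA. RAD54-family motors, XRCC2 and XRCC3 help in the search for the partner strand, and the BLM helicase with RMI1 and RMI2 takes the joined molecules apart again. The Fanconi core complex, anchored by FANCM, puts ubiquitin on the FANCD2 and FANCI clamp at stalled forks. Recombination needs a sister chromatid and is used mainly in S and G2 phase, and many of its genes are transcribed under E2F control in cells that enter S phase, whereas senescent cells have left the cycle.

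E2F factors bind TTCCCGC or TTGGCGC or TTCGCGC or TTGCCGC, which were searched on both strands in the RefSeq promoters of GRCh38.p14 (250 bases before to 50 bases after the start). Of the 37 genes 33 had such a promoter, and FANCI, NBN, RAD54B and RMI2 had none in the table. At least 1 of the 4 words stood in a promoter of 20 of the 33 genes (60.6%), against 15.3% of all genes with a promoter in the table. Those were 27305 genes, whether or not they were tested here, and they were not matched to the 33 for base composition. With a further T in front (TTTCCCGC or TTTGGCGC or TTTCGCGC or TTTGCCGC, all of which contain the shorter words) the count was 7 of 33 (21.2%) against 3.99%. TTTGAA, the cell cycle homology element of late cell cycle genes, stood in 5 of 33 (15.2%), against 18.2% of all genes. Genes with several listed starts were counted if any of their promoters held the word, here and in the background. Of the 15 genes with a promoter whose median log2 fold change over the 25 comparisons was below -1, 12 held a core word, and of the other 17 tested genes 7 did. The 13 genes without a core word were PALB2, BRCA2, FANCB, FANCM, MRE11, RAD50, RBBP8, ATM, ATR, CHEK1, CHEK2, H2AX and TP53BP1. Among them BRCA2, FANCB, RBBP8, CHEK1 and H2AX were called lower in 17 or more of the 25 comparisons described below. A match is a string of letters and not a measured site, and the median used for the split comes from the fold changes below. The part of E2F in those fold changes was not tested.

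The promoters of BLM, RAD54L, FANCD2 and BRIP1 are shown because, of the genes below with values in every condition whose promoter held a core word, these had the lowest median log2 fold changes. Each runs in the direction of transcription on the gene's strand from 150 bases before the first listed start to the start, or to the last core word where that lies past it, with core words in capitals. GCGGGAA is TTCCCGC read on the other strand.
BLM (chr15:90717196-90717374, + strand): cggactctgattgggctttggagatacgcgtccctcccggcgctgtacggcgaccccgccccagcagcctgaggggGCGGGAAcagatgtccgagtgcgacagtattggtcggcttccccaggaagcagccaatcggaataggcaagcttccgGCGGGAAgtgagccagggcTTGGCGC
RAD54L (chr1:46247538-46247687, + strand): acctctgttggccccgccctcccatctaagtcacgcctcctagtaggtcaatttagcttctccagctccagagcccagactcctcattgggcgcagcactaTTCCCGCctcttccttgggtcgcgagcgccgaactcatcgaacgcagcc
FANCD2 (chr3:10026287-10026441, + strand): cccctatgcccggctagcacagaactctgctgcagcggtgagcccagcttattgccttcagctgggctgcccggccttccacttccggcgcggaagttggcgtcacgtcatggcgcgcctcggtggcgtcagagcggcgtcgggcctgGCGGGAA
BRIP1 (chr17:61863520-61863678, - strand): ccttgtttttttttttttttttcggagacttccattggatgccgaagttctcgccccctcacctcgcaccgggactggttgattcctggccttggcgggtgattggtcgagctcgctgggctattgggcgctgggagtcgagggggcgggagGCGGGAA

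BLM held 3 core words, beginning 74 bases before the start and at bases 4 and 23 of the transcript. RAD54L held 1, which began 49 bases before the start and lay on the strand shown. In FANCD2 the single word began 2 bases before the start and crossed it, and in BRIP1 it began at base 3 of the transcript.

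The deposited tables give, for each of the 25 treated groups against the untreated cells, the average normalized count of the pair of groups, the log2 fold change, its standard error and its p-value, and no value of a single library. The levels below are group means on a common scale, worked out from the mean and the fold change, and the spread between the 2 libraries of a group is visible only through the standard error (SE). All 25 comparisons share the same 2 untreated libraries, so an error in those moves all of them together. The labels give no day for the untreated cells, so time in culture cannot be told apart from the course after a treatment. The step between low values put the untreated libraries at about 15400000 and 18800000 counted reads, the RS libraries at 45200000 and 58000000, and the others at 19100000 to 53500000. A gene was called lower or higher where its deposited p-value, adjusted by Benjamini-Hochberg over all tested genes of that comparison, was under 0.05.

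Fibroblast markers were detected in every group, at levels that varied. COL1A1, a chain of type I collagen, stood at 273011 normalized counts in untreated cells and at 69273 or more in every treated group, and VIM, the vimentin gene, at 62958 and 37202 or more. Of the 9 markers 6, 6 and 7 were called lower on PMD-Sen days 0, 1 and 2, with medians of -0.94, -1.08 and -0.86, and 1, 0 and 1 were called higher. On Ca2+-Sen day 0, 6 were lower and 2 higher, with a median of -0.47, and the sum of the 9 was 406404 normalized counts against 822109 in untreated cells. Some late groups went the other way, with 4 higher and 1 lower on PMD-Sen day 16 (median 0.38). On Ca2+-Sen day 8 and DDR-Sen day 16, 5 were higher and 2 lower (medians 0.35 and 0.36), and in RS 3 and 1 (median 0.48). On Ca2+-Sen day 16, 3 were higher and 2 lower (median -0.01), and on DDR-Sen day 6, 1 and 4 (median -0.18). The sum of the 9 was 762562 on PMD-Sen day 16, 662337 on DDR-Sen day 16 and 843001 in RS. COL3A1, a chain of type III collagen, went from 27307 in untreated cells to as little as 3498, and to 49366 on Ca2+-Sen day 8. LUM, the lumican gene, went from 3363 to 17721 in RS. The part of these markers in the course of the repair genes was not tested. The epithelial marker EPCAM was at 12.9 and never above 17.2, and CDH1 of the same list went from 0.234 to between 0.669 and 9.78. The leukocyte marker PTPRC was at 0.212 and reached 19.7 on DDR-Sen day 2. Its list of 4 summed to 1.45 in untreated cells, to 15.3 to 23.3 in the DDR-Sen groups and to at most 3.42 in the others. The genes of these 2 lists were below the minimum mean and not tested. Of the endothelial markers CDH5 was at 0 in untreated cells. VWF was at 34.6 there and between 22.5 and 72.1 in the treated groups, and PECAM1 was at 2.2 in untreated cells and reached 108 on Ca2+-Sen day 0.

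Many of the repair genes were lower than in untreated cells in RS and in most groups after a treatment. The count differed with the inducer and the day. The names ending in -Sen are used for every day, including the end of the treatment. The paper reports that the senescence pathway was not yet activated in PMD-Sen in the first days after the wash. Whether the cells of the early groups were already senescent was not tested. At the end of each of the 3 treatments, 24 to 29 of the 36 tested genes were called lower, beside 14.9% to 26.5% of all tested genes. On days 1 and 2 of PMD-Sen and Ca2+-Sen 2 to 7 were (all genes 2.56% to 10.0%). The count of 2 was below the share of all genes on PMD-Sen day 1 (10.0%) and above it on Ca2+-Sen day 2 (2.56%), but too small to be set apart from either share. With the minimum mean raised to 100 these counts were 2 of 28 (all genes 13.8%) and 4 of 28 (all genes 3.82%). With no minimum they were 0 (all genes 4.57%) and 1 (all genes 1.06%). From day 3 on 15 to 25 were lower in PMD-Sen and Ca2+-Sen (all genes 5.52% to 17.8%). In DDR-Sen 21 or more were lower on every day (all genes 6.86% to 16.7%), and in RS 25 were (all genes 11.5%). In bulk RNA, fewer cells that express a gene and less RNA of it per cell cannot be told apart.

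**Figure D1:**
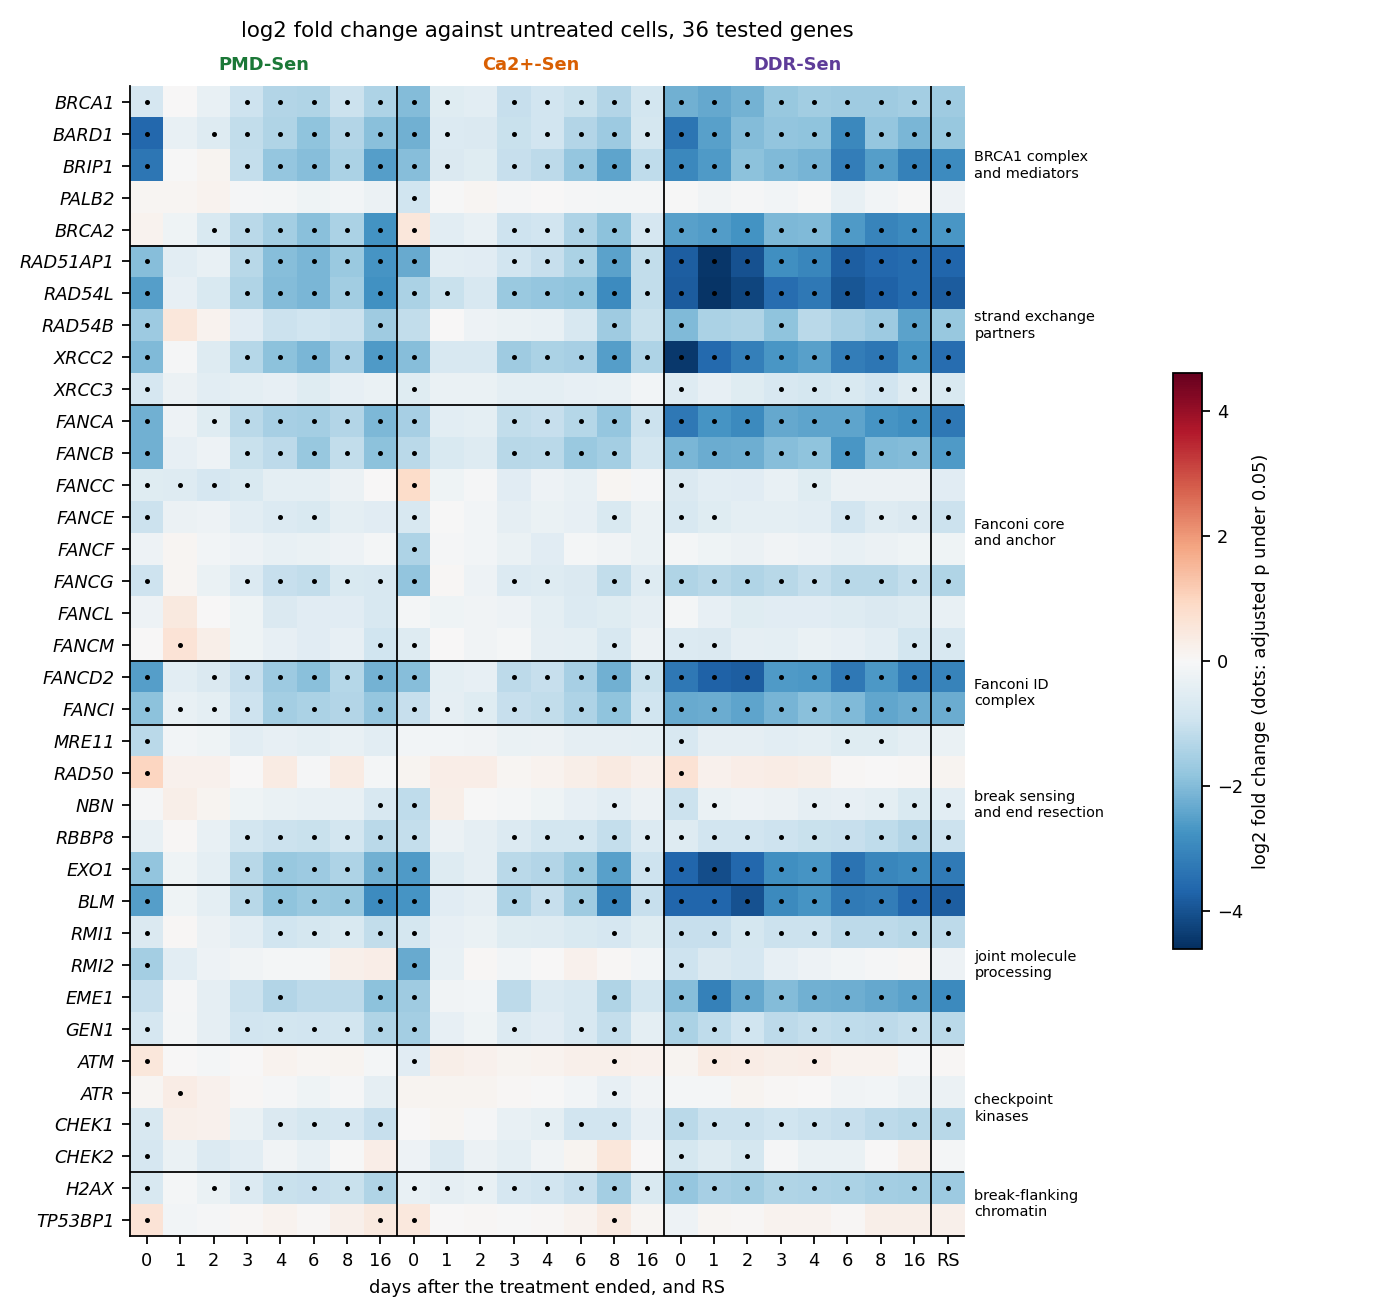
Log2 fold change against untreated cells for the 36 tested genes (rows, grouped by role) in 25 comparisons (columns: days 0 to 16 of each inducer, and RS), with blue for lower, red for higher and a dot where the adjusted p was under 0.05. The blue rows pale on days 1 and 2 of PMD-Sen and Ca2+-Sen and stay dark across DDR-Sen and RS, and PALB2, FANCL, RAD50, ATR and TP53BP1 are pale throughout most columns.

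In PMD-Sen on day 0, 24 of the 36 genes were called lower, against 20.2% of all tested genes, and 3 higher, against 19.8%. The median log2 fold change of the 36 was -0.79, while that of all tested genes lay between -0.04 and 0.02 in all 25 comparisons. On day 1 only 2 were called lower and 2 higher, not above the shares of all genes (10.0% and 9.63%), and the median had come back to -0.09. None of these 4 calls (0 lower and 0 higher) is kept when all genes are tested. By day 2, 7 were lower (all genes 6.99%) and 0 higher (all genes 8.80%). The number lower on day 2 is 4 when all genes are tested (all genes 2.93%). Day 3 had 18 lower (all genes 6.06%) and 0 higher (all genes 5.42%), with a median of -0.62. The count lower was then 21 on day 4 (8.38% of all genes), 20 on day 6 (6.97%) and 19 on day 8 (6.04%), and 0 were higher on each of these days, against 7.31%, 5.78% and 5.75% of all genes. From day 2 to day 8 the DESeq2 p-values put none of the 36 higher at an unadjusted p under 0.05 either (0 on each day). On day 16, 23 were lower (all genes 11.5%), 1 was higher (all genes 9.63%), and the median was -1.17. On day 2 the calls over all genes were 55.7% higher, and 42.1% with the median of abundant genes set to 0, where 11 of the 36 were lower (all genes 8.68%).

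In Ca2+-Sen on day 0, 26 of the 36 genes were called lower (all genes 26.5%) and 3 higher (all genes 23.6%), with a median of -1.12. On day 1, 6 were lower (all genes 7.13%) and 0 higher (all genes 5.34%). Day 2 had the fewest calls, with 2 lower (all genes 2.56%) and 0 higher (all genes 1.77%), and a median of -0.26. On days 3, 4 and 6, 17, 17 and 17 were lower, against 5.71%, 7.03% and 5.52% of all genes, and 0 were higher, against 4.77%, 4.98% and 4.71%. Day 8 had the most calls after day 0, with 25 lower (all genes 17.8%), 2 higher (all genes 15.5%) and a median of -1.10. By day 16 the count was 15 lower (all genes 6.08%) and 0 higher (all genes 5.79%), with a median of -0.58. At an unadjusted p under 0.05 the same DESeq2 p-values put 2 genes higher on day 1, 1 on day 6, 1 on day 16, and 0 on days 2, 3 and 4. On day 1 the calls over all genes were 42.8% higher, and 55.7% with the totals of the groups set equal, where 2 of the 36 were higher (all genes 7.50%).

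In DDR-Sen on day 0, 29 of the 36 genes were called lower (all genes 14.9%) and 1 higher (all genes 12.9%), with a median of -1.30. The count stayed at 21 or more on every later day. On day 1, 23 were lower (all genes 11.0%) and 1 higher (all genes 8.50%), and on day 2, 21 lower (all genes 7.47%) and 1 higher (all genes 5.18%). Day 3 had 22 lower (all genes 6.86%) and 0 higher (all genes 4.71%), and day 4 had 23 lower (all genes 10.5%) and 1 higher (all genes 7.92%). On days 6, 8 and 16, 24, 25 and 25 were lower, against 13.8%, 11.8% and 16.7% of all genes, and 0 were higher, against 10.7%, 10.3% and 13.2%. At an unadjusted p under 0.05 the same DESeq2 p-values put 1 gene higher on each of days 3, 8 and 16 and 0 on day 6. The median ran between -0.96 on day 2 and -1.30 on day 0. In RS, 25 of the 36 were lower (all genes 11.5%) and 0 higher (all genes 11.6%, and 0 of the 36 at an unadjusted p under 0.05), with a median of -1.26.

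**Figure D2:**
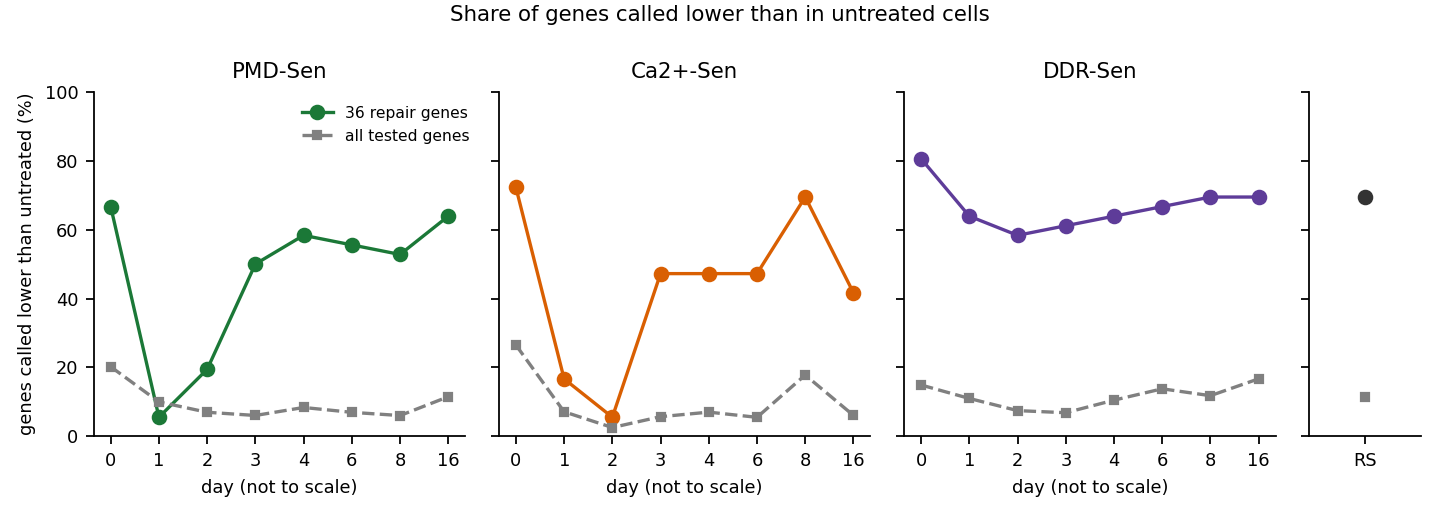
Percent of the 36 repair genes (circles) and of all tested genes (grey squares) called lower than in untreated cells at an adjusted p under 0.05, by day (not to scale) for each inducer, and for RS. The repair genes are lowest on day 1 of PMD-Sen and on day 2 of Ca2+-Sen, near all genes in both. They stay far above all genes throughout DDR-Sen and in RS.

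Markers of dividing cells were lower in the same groups as many repair genes. The 8 markers (MKI67, TOP2A, CCNA2, CCNB1, CDK1, AURKA, PCNA and MCM2), with TOP2A the most abundant, summed to 16793 normalized counts in untreated cells. In PMD-Sen the sum was 3488, 11459, 12089.6, 8239, 5857, 4974, 6745 and 3937. In Ca2+-Sen it was 5558, 9913, 11075, 7502, 8065, 6138, 3835 and 8481. In DDR-Sen it was 7806, 3426, 3237, 3979, 3843, 2927, 3149 and 2520.2, and was 2205 in RS. The sum was nearest to the untreated one on days 1 and 2 of PMD-Sen and Ca2+-Sen, as the repair genes were, and far below it in DDR-Sen and RS. PCNA, the sliding clamp of replication, was the only marker called higher in any group, on DDR-Sen day 0 at 6758 against 2161 in untreated cells. It made up most of the sum there, so that the sum on DDR-Sen day 0 lay above those on PMD-Sen and Ca2+-Sen day 0 while the median of the repair genes lay below theirs. The other 7 markers, summed without PCNA after the values were seen, stood at 14632 in untreated cells and at 2522, 3818 and 1048 on day 0 of PMD-Sen, Ca2+-Sen and DDR-Sen. MKI67, the proliferation antigen, was at 4021 in untreated cells, 2149 on PMD-Sen day 2, 17.9 on DDR-Sen day 1 and 88.2 in RS. Of the 8 markers, 4 to 8 were called lower in each PMD-Sen group, 6 to 8 in each Ca2+-Sen group, 7 or 8 in each DDR-Sen group and 8 in RS, and none was at 0 in any group. On PMD-Sen day 1 7 of the 8 markers were lower, with a median of -0.46, beside 2 of the 36 repair genes. Their part in the fall of the repair genes was not tested.

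The SE of MKI67 differed widely between groups, and a large one goes with libraries of a group that stood apart. It was 1.07 in RS, 0.65 on Ca2+-Sen day 6 and 0.64 on PMD-Sen day 16, against 0.12 on Ca2+-Sen day 1. No library of those groups could be left out, since the tables hold none on its own.

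Among the genes of the BRCA1 complex and the mediators, BRCA1, BARD1, BRIP1 and BRCA2 fell in RS and in every DDR-Sen group, and PALB2 did in none of them. BRIP1, the helicase that binds BRCA1, stood at 455 normalized counts in untreated cells and at 45.6, 447, 494, 216, 133, 116, 167 and 79.1 in PMD-Sen. In Ca2+-Sen BRIP1 was at 117, 284, 312, 219, 196, 132, 84.3 and 201. In DDR-Sen BRIP1 was at 58.6, 75.3, 122, 111, 104, 50.7, 78.5 and 52.9, and in RS at 61. BRIP1 was lowest at the end of the SDS treatment (log2 fold change -3.32 ± 0.27), was back at the untreated level on days 1 and 2 (-0.03 ± 0.17 and 0.12 ± 0.16, neither called), and was called lower in 22 of the 25 comparisons. BRCA2, the mediator that acts on resected DNA, stood at 277 normalized counts in untreated cells and at 313, 240.3, 170.1, 116, 93.1, 72.6, 102 and 41.6 in PMD-Sen. In Ca2+-Sen BRCA2 was at 399, 198, 218, 143, 149, 103, 75.5 and 163. In DDR-Sen BRCA2 was at 49.3, 47.3, 41.4, 66.1, 67.1, 45.4, 33.6 and 37.1, and in RS at 43.8. On day 0 the direction of BRCA2 depended on the inducer. It was not called after SDS (0.17 ± 0.24), was higher after KCl (0.52 ± 0.21, adjusted p = 0.0319, a call that is lost when all genes are tested), and was lower after DXR (-2.49 ± 0.27). From day 3 on it was lower with every inducer, and it was lower on PMD-Sen day 2 unless all genes are tested.

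PALB2, the bridge between BRCA1 and BRCA2, stood at 281 normalized counts in untreated cells and at 296, 301, 314, 272, 262, 242, 255 and 234 in PMD-Sen. In Ca2+-Sen PALB2 was at 148, 278, 296, 269, 285, 269, 264 and 266. In DDR-Sen PALB2 was at 276, 252, 272, 257, 276, 223, 259 and 275, and in RS at 237. PALB2 lay between 223 and 314 in all groups but Ca2+-Sen day 0, and its fall there (-0.92 ± 0.22) was its only call. BARD1, the partner of BRCA1 in its ubiquitin ligase, fell the most of all 36 genes on PMD-Sen day 0, from 296 to 24.4 (-3.60 ± 0.35). BRCA1 itself went from 511 to 300.1 there (-0.77 ± 0.19), and to 127 after KCl and 109.8 after DXR (-2.01 ± 0.19 and -2.22 ± 0.19). BARD1 was called lower in 23 of 25 comparisons and BRCA1 in 22.

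Of the partners of strand exchange, RAD54L, RAD51AP1 and XRCC2 had their lowest values on day 0 or 1 of DDR-Sen. RAD54L, a motor protein of strand exchange, stood at 150.3 normalized counts in untreated cells and at 26.2, 116, 91.8, 58.2, 38.1, 35.1, 49.2 and 21.8 in PMD-Sen. In Ca2+-Sen RAD54L was at 54.9, 73.9, 90.1, 46, 44.2, 42, 20.2 and 67.8. In DDR-Sen RAD54L was at 10.7, 6.59, 7.97, 13.1, 15.3, 9.89, 11.4 and 12.9, and in RS at 10.5. RAD54L was lowest on DDR-Sen day 1 (-4.51 ± 0.47), was called lower in 22 of 25 comparisons, and was at 116 with no call on PMD-Sen day 1. XRCC3, a strand exchange cofactor, stood at 295 normalized counts in untreated cells and at 173, 245, 211, 214, 224, 201, 227 and 241 in PMD-Sen. In Ca2+-Sen XRCC3 was at 200.2, 240.1, 239.9, 215, 214, 228, 234 and 269.8. In DDR-Sen XRCC3 was at 194, 225, 200.2, 175, 170.2, 183, 161 and 197, and in RS at 183. XRCC3 lay below the untreated level in all 25 groups, by -0.13 to -0.88. It was called in 9, 1 of which, DDR-Sen day 16, is lost when all genes are tested or either other scaling is used. XRCC2, another such cofactor, in contrast fell from 182 to 8.46 on DDR-Sen day 0 (-4.43 ± 0.40), and RAD51AP1, which stimulates strand exchange, from 274 to 12.2 on DDR-Sen day 1 (-4.48 ± 0.35). RAD54B, a relative of RAD54L, had few counts (47 in untreated cells) and a median SE of 0.55. It was called lower in 8 comparisons.

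Within the Fanconi core complex the members were called lower between 0 and 22 times in the 25 comparisons. FANCB, a core subunit, stood at 125 normalized counts in untreated cells and at 27.3, 96.6, 107, 60.7, 53.7, 37, 57.7 and 33.7 in PMD-Sen. In Ca2+-Sen FANCB was at 52.7, 76, 82.9, 51.4, 53.2, 38.5, 42.2 and 69.6. In DDR-Sen FANCB was at 28.9, 25.9, 26.5, 32.4, 34.2, 19.6, 30.8 and 31.4, and in RS at 20.5. FANCB was called lower in 20 of 25 comparisons, down to -2.67 ± 0.43 on DDR-Sen day 6. FANCF, the adaptor of the core complex, stood at 191 normalized counts in untreated cells and at 162, 206, 175, 161, 152, 155, 164 and 181 in PMD-Sen. In Ca2+-Sen FANCF was at 72.1, 186, 174, 156, 134, 178, 169 and 154. In DDR-Sen FANCF was at 179.7, 166, 159, 173, 162, 152, 159.8 and 167, and in RS at 166. FANCF was called only on Ca2+-Sen day 0 (-1.41 ± 0.28), where it was far below all its other values. FANCC, a further core subunit, stood at 309 normalized counts in untreated cells and at 209, 206, 183, 188, 227, 225, 255 and 311 in PMD-Sen. In Ca2+-Sen FANCC was at 554, 267, 296, 215, 265, 247, 331 and 299.8. In DDR-Sen FANCC was at 194, 222, 217, 242, 212, 255, 255 and 259, and in RS at 217. FANCC was higher at the end of the KCl treatment (0.84 ± 0.17, adjusted p = 2.13e-06) and lower on days 0 to 3 of PMD-Sen (between -0.57 and -0.76). The FANCC calls on PMD-Sen days 0 and 1 and on DDR-Sen day 4 are lost when all genes are tested or the totals are set equal.

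FANCM, the translocase that anchors the core complex to DNA, stood at 193 normalized counts in untreated cells and at 197, 298, 234, 167, 147, 136, 151 and 103 in PMD-Sen. In Ca2+-Sen FANCM was at 127, 198, 174, 181, 144, 142, 115 and 159. In DDR-Sen FANCM was at 124, 121, 144, 140.0, 155, 149.99, 138 and 107, and in RS at 115. FANCM was higher on PMD-Sen day 1 (0.63 ± 0.23, adjusted p = 0.0321, lost when all genes are tested) and lower on day 16 of PMD-Sen and DDR-Sen and in RS, with 7 calls lower in all, of which those on day 0 of Ca2+-Sen and DDR-Sen and on day 1 of DDR-Sen are lost when all genes are tested or the median of abundant genes is set to 0. FANCA, a core subunit, fell in 22 comparisons, from 338 to 34.3 on DDR-Sen day 0 (-3.30 ± 0.27). FANCG, which joins FANCA to the core, fell in 20 and FANCE, which contacts FANCD2, in 11. FANCL, the ubiquitin ligase subunit, was called in none of the 25, with values from -0.75 to 0.43 and a median SE of 0.28.

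Both members of the clamp that the core complex modifies fell. FANCD2, the ubiquitinated Fanconi protein, stood at 305 normalized counts in untreated cells and at 53.2, 217, 194, 146, 94.9, 81.2, 122 and 67.3 in PMD-Sen. In Ca2+-Sen FANCD2 was at 77.6, 222, 235, 134, 145, 107, 66.1 and 149. In DDR-Sen FANCD2 was at 31.2, 23, 22.1, 50.1, 49.2, 31.5, 49 and 32.7, and in RS at 36.7. FANCD2 was lowest on DDR-Sen day 2 (-3.79 ± 0.33) and was called lower in 22 of 25 comparisons, the exceptions being PMD-Sen day 1 and Ca2+-Sen days 1 and 2. FANCI, its partner, stood at 968 normalized counts in untreated cells and at 264, 756, 713, 496, 329, 352, 378 and 282 in PMD-Sen. In Ca2+-Sen FANCI was at 466, 728, 661, 459, 446, 365, 271 and 519. In DDR-Sen FANCI was at 195, 199, 178, 221, 255, 239, 186 and 200.01, and in RS at 197. FANCI was called lower in all 25 comparisons. The smallest of these falls was -0.36 ± 0.14 on PMD-Sen day 1, a call that is lost when all genes are tested or the totals are set equal.

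Of the genes that sense and resect breaks, EXO1 fell in 21 comparisons, RBBP8 in 20, NBN in 10, MRE11 in 4 and RAD50 in 0. EXO1, an exonuclease of long-range resection, stood at 261 normalized counts in untreated cells and at 73.2, 227, 191, 107, 76.9, 81.9, 98.1 and 56 in PMD-Sen. In Ca2+-Sen EXO1 was at 42.6, 173, 195, 110.5, 104, 78.3, 46 and 134. In DDR-Sen EXO1 was at 20.7, 15.5, 21.3, 37.2, 40, 25, 32.9 and 35.4, and in RS at 27.5. EXO1 fell in 21 of 25 comparisons, most on DDR-Sen day 1 (-4.07 ± 0.34). RAD50, the ATPase of the MRE11 complex, stood at 115 normalized counts in untreated cells and at 228, 130.5, 133, 117, 148, 111, 151 and 108 in PMD-Sen. In Ca2+-Sen RAD50 was at 124, 142, 141, 121, 129, 139, 153 and 135. In DDR-Sen RAD50 was at 183, 133, 142, 144, 140.1, 119.6, 118 and 121, and in RS at 127. RAD50 was the only member of that complex with a call higher, on PMD-Sen day 0 (0.99 ± 0.28, adjusted p = 0.00195) and on DDR-Sen day 0 (0.67 ± 0.26, adjusted p = 0.035, lost when all genes are tested). MRE11, the nuclease, fell on the same PMD-Sen day 0 (-1.25 ± 0.22) and was at -0.14 ± 0.18 on Ca2+-Sen day 0. NBN, which brings ATM to the break, did the reverse, at -0.05 ± 0.12 after SDS with no call and at -1.18 ± 0.11 after KCl, and 6 of its calls were in DDR-Sen. RAD50 was lower in 0 comparisons also at an unadjusted DESeq2 p under 0.05 (0). RBBP8, which starts resection, was lower in 20 comparisons, with its largest fall, -1.36 ± 0.19, on DDR-Sen day 16.

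Of the genes that process joint molecules, BLM fell in 21 comparisons, RMI1 in 16 and RMI2 in 3. BLM, the Bloom syndrome helicase, stood at 133 normalized counts in untreated cells and at 22.8, 115, 96.5, 54.4, 37, 41, 39.8 and 17.8 in PMD-Sen. In Ca2+-Sen BLM was at 20.2, 93.5, 99, 49.6, 63.7, 43, 16 and 63.6. In DDR-Sen BLM was at 10.5, 10.7, 8.35, 17.2, 20.3, 14, 14.6 and 10.9, and in RS at 9.68. BLM had the largest fall of the 36 genes on PMD-Sen day 16 (-2.90 ± 0.54), Ca2+-Sen day 8 (-3.05 ± 0.40) and DDR-Sen day 16 (-3.61 ± 0.48), at 17.8, 16 and 10.9 normalized counts. RMI2, a small subunit of the BLM complex, stood at 159 normalized counts in untreated cells and at 54.1, 114, 135, 143, 149, 149, 185 and 198 in PMD-Sen. In Ca2+-Sen RMI2 was at 31.7, 125, 167, 145, 163, 180.4, 164 and 148. In DDR-Sen RMI2 was at 82.7, 101, 94, 123, 136, 146, 154 and 166, and in RS at 135. RMI2 was called lower on day 0 of each inducer, with the lowest value after KCl (-2.33 ± 0.35), and in no other group. On DDR-Sen days 1 and 2 it was still at -0.65 ± 0.28 and -0.76 ± 0.31, not shown to differ from day 0 (-0.94 ± 0.28). It lay at -0.24 ± 0.27 in RS and 0.06 ± 0.28 on DDR-Sen day 16, neither of them called. RMI1 was lower in 16 comparisons and all 8 of DDR-Sen, down to -1.29 ± 0.27. Of the nucleases, EME1, the partner of MUS81, fell from 76.5 to 8.83 on DDR-Sen day 1 (-3.11 ± 0.53), and GEN1, a resolvase, from 403 to 135 on Ca2+-Sen day 0 (-1.57 ± 0.21).

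**Figure D3:**
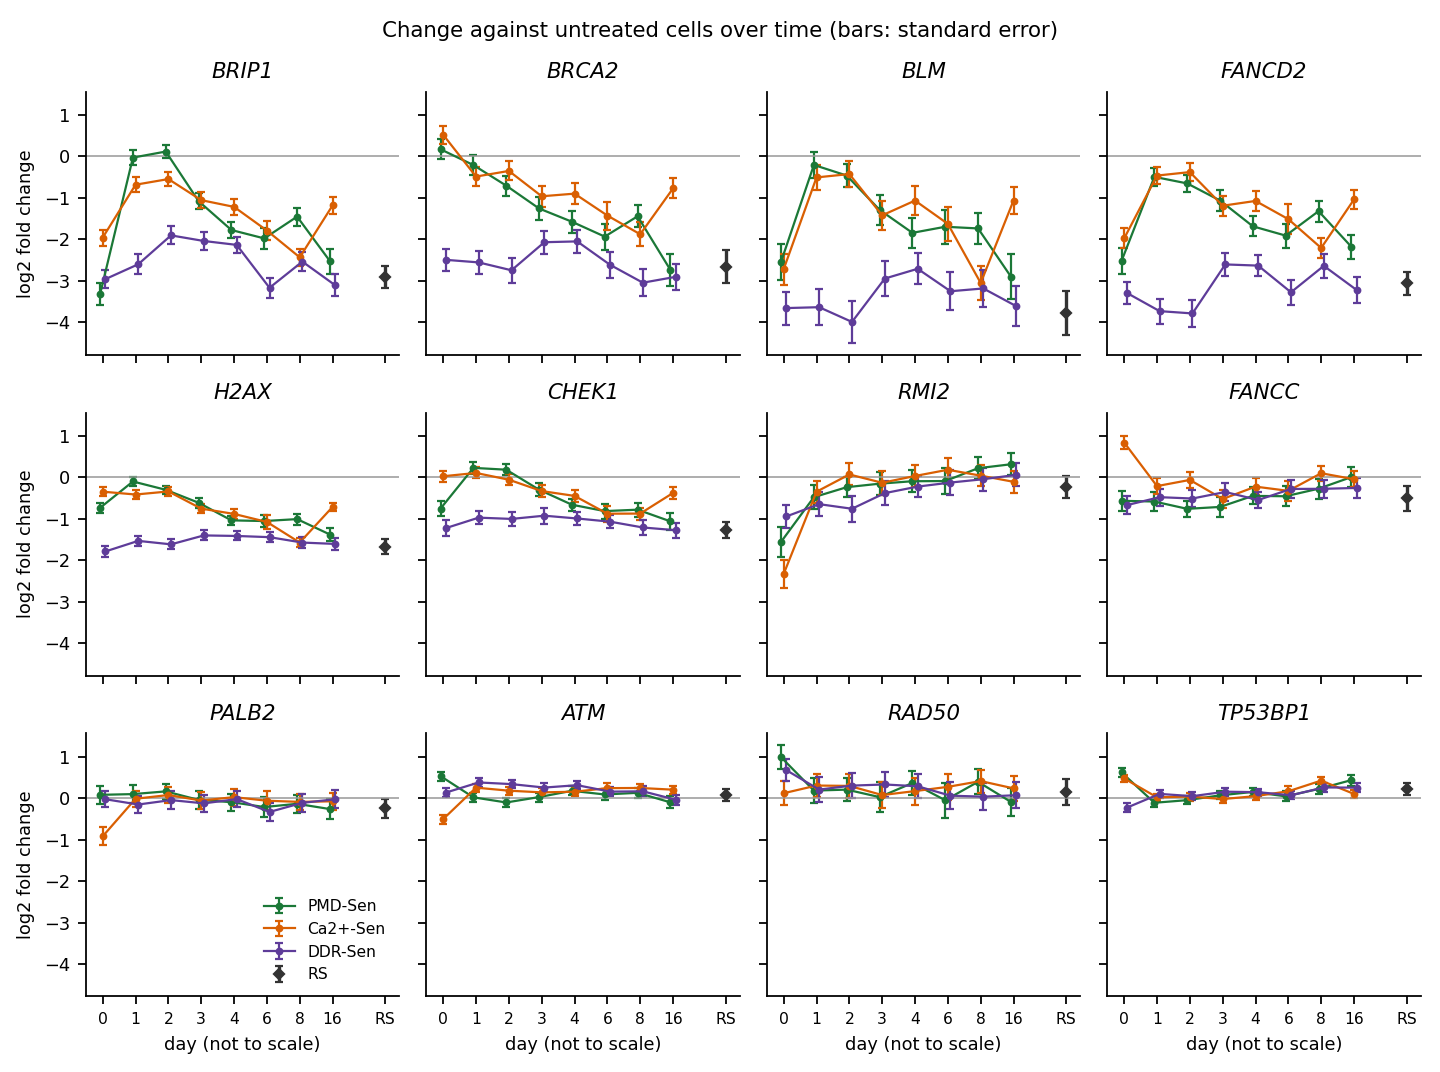
Log2 fold change against untreated cells by day (not to scale) for 12 genes, with the standard error as bars, for PMD-Sen (green), Ca2+-Sen (orange), DDR-Sen (purple) and RS (diamond). On day 1 BRIP1, BLM and FANCD2 lie between -0.68 and -0.03 after SDS and KCl and between -3.73 and -2.60 after DXR, and RMI2 has its lowest values on day 0.

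Among the checkpoint kinases CHEK1 was called lower in 17 comparisons, CHEK2 in 3, and ATM and ATR in 1 each. CHEK1, the kinase that ATR activates, stood at 717 normalized counts in untreated cells and at 426, 839, 814, 583, 453, 407, 417 and 343 in PMD-Sen. In Ca2+-Sen CHEK1 was at 729.5, 771, 688, 569, 526, 390.0, 391 and 552. In DDR-Sen CHEK1 was at 307, 365, 358, 378, 360.1, 342, 309.8 and 296, and in RS at 297. CHEK1 was lower in RS and in all 8 DDR-Sen groups, but not on Ca2+-Sen day 0 (0.03 ± 0.13). ATR, the kinase that answers to stalled forks, stood at 1095 normalized counts in untreated cells and at 1174, 1373, 1258, 1140.0, 1064, 949, 1060.4 and 815 in PMD-Sen. In Ca2+-Sen ATR was at 1198, 1181, 1186, 1136, 1072, 1012, 834 and 980.0. In DDR-Sen ATR was at 1036, 1024, 1186, 1125, 1108, 967, 1015 and 915, and in RS at 919. ATR was called on PMD-Sen day 1 (0.33 ± 0.12, adjusted p = 0.0436, lost when all genes are tested or the median of abundant genes is set to 0) and on Ca2+-Sen day 8 (-0.39 ± 0.12). ATM, the kinase that answers to DNA breaks, stood at 2090.2 normalized counts in untreated cells and at 3019.9, 2118, 1944, 2128, 2363, 2222, 2284 and 1948 in PMD-Sen. In Ca2+-Sen ATM was at 1473, 2490.0, 2369, 2302, 2327, 2471, 2478 and 2408. In DDR-Sen ATM was at 2294, 2718, 2643, 2495, 2596, 2331, 2343 and 2036, and in RS at 2194. ATM rose on PMD-Sen day 0 (0.53 ± 0.11), fell on Ca2+-Sen day 0 (-0.50 ± 0.11), and was higher on days 1, 2 and 4 of DDR-Sen (0.38 ± 0.11, 0.34 ± 0.10 and 0.31 ± 0.09) and on Ca2+-Sen day 8 (0.25 ± 0.09). CHEK2, the kinase that ATM activates, was lower on day 0 of PMD-Sen and on days 0 and 2 of DDR-Sen, and was at -0.11 ± 0.26 in RS.

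The tested chromatin factors around a break took different courses. H2AX, the histone variant that is phosphorylated at breaks, stood at 2304 normalized counts in untreated cells and at 1384, 2149, 1869, 1507, 1122, 1109, 1146 and 886 in PMD-Sen. In Ca2+-Sen H2AX was at 1813, 1728, 1819, 1365, 1250.1, 1092, 774 and 1404. In DDR-Sen H2AX was at 667, 796, 751, 872, 864, 847, 774 and 757, and in RS at 721. H2AX was called lower in 24 of 25 comparisons, all but PMD-Sen day 1 (-0.10 ± 0.11), and by the most on DDR-Sen day 0 (-1.79 ± 0.12). Its calls on day 2 of PMD-Sen and Ca2+-Sen are lost when all genes are tested. TP53BP1, which binds the marked chromatin and favours end joining, stood at 2657 normalized counts in untreated cells and at 4084, 2458, 2569, 2784, 2948, 2738, 3095 and 3592 in PMD-Sen. In Ca2+-Sen TP53BP1 was at 3692, 2694, 2730.3, 2617, 2746, 2981, 3564 and 2850.1. In DDR-Sen TP53BP1 was at 2265, 2853, 2746, 2959, 2935, 2788, 3178 and 3166, and in RS at 3096. TP53BP1 was never called lower, and was higher on day 0 of PMD-Sen (0.62 ± 0.11) and Ca2+-Sen (0.47 ± 0.09), on PMD-Sen day 16 (0.43 ± 0.13) and on Ca2+-Sen day 8 (0.42 ± 0.08).

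The inducers were then compared with each other on days 0, 1, 2 and 16, by a two-sided normal test of the difference of their log2 fold changes, adjusted over all tested genes. Because the error of the shared untreated libraries is counted in both fold changes, the test makes too few calls, and 12 such comparisons were made. On day 0 SDS and DXR differed in 10 of the 36 genes, all higher after SDS (all genes 15.0%), and 0 lower (all genes 13.6%, and 0 of the 36 at an unadjusted p under 0.05). Both shares together are close to the share of the 36 that differed, and with the estimated error of the shared untreated libraries removed the counts are 17 higher and 1 lower, beside 23.3% and 20.6% of all genes. BRCA2 differed the most, by 2.67 (95% interval 1.96 to 3.37), followed by XRCC2, by 2.40 (95% interval 1.29 to 3.50). BARD1 and BRIP1 could not be told apart between SDS and DXR, with differences of -0.23 (95% interval -1.10 to 0.63) and -0.36 (95% interval -1.04 to 0.31).

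KCl and DXR differed on day 0 in 13 genes that were higher after KCl (all genes 18.3%) and 4 that were lower (all genes 18.8%). BRCA2 was again the most apart, by 3.01 (95% interval 2.34 to 3.69), and FANCC, CHEK1 and H2AX were higher after KCl by 1.51, 1.25 and 1.44. The 4 genes lower after KCl were RMI2, with a difference of -1.39 (95% interval -2.26 to -0.52), FANCF, with -1.32 (95% interval -2.02 to -0.61), PALB2 and ATM. SDS and KCl differed on day 0 in 6 genes lower after SDS (all genes 18.1%; 10 with the shared error removed, all genes 25.4%), among them FANCC, BARD1 and BRIP1, and in 8 higher after SDS (all genes 20.5%), among them BRCA1, NBN and ATM, which together is also close to the share of all genes. Between SDS and KCl the difference was -1.40 (95% interval -2.24 to -0.56) for BARD1 and 1.24 (95% interval 0.71 to 1.77) for BRCA1, so these partners were set apart in opposite directions.

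**Figure D4:**
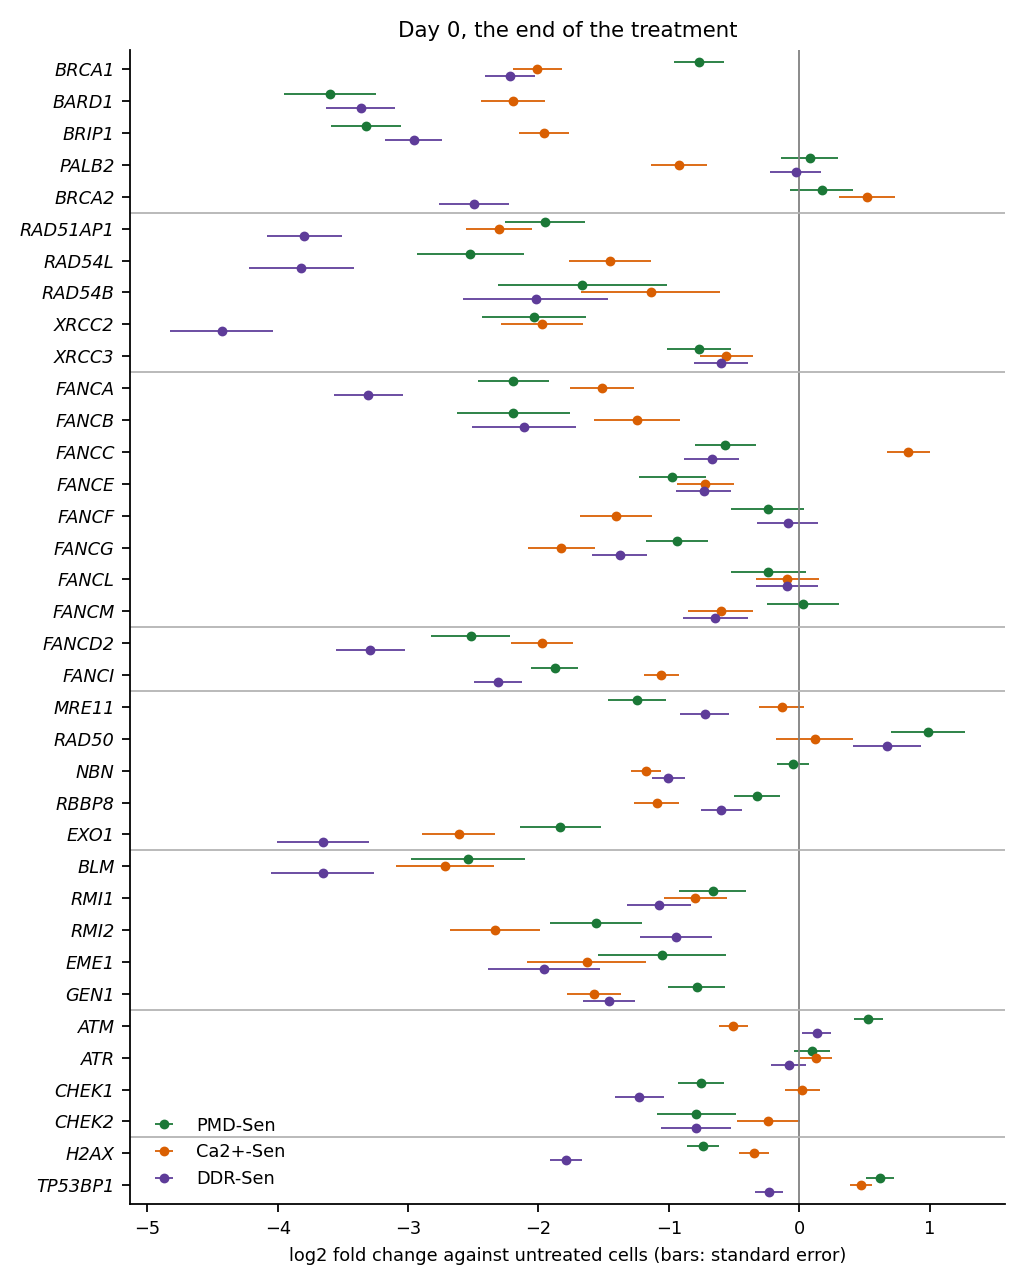
Log2 fold change against untreated cells at the end of the treatment (day 0) for the 36 tested genes, with the standard error as bars, after SDS (PMD-Sen, green), KCl (Ca2+-Sen, orange) and DXR (DDR-Sen, purple). BRCA2 lies at 0.17, 0.52 and -2.49, and FANCC at -0.57, 0.84 and -0.67.

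A day after the wash PMD-Sen and Ca2+-Sen both lay above DDR-Sen. On day 1, 23 of the 36 genes were higher in PMD-Sen than in DDR-Sen (all genes 6.88%) and 0 lower (all genes 5.45%, and 1 of the 36 at an unadjusted p under 0.05). RAD54L differed by 4.13 (95% interval 3.04 to 5.23) and FANCD2 by 3.24 (95% interval 2.51 to 3.97). In Ca2+-Sen 19 genes were higher than in DDR-Sen (all genes 4.66%) and 0 lower (all genes 3.08%, and 0 at an unadjusted p under 0.05), with RAD51AP1 apart by 3.99 (95% interval 3.19 to 4.79). PMD-Sen and Ca2+-Sen differed in 0 of the 36 genes in either direction by the normal test (all genes 2.91% lower and 1.50% higher in PMD-Sen), with 0 and 3 at an unadjusted p under 0.05, and the interval of FANCD2 there was -0.62 to 0.56. With the shared error removed 0 were lower (all genes 6.52%) and 3 higher in PMD-Sen (all genes 5.97%).

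On day 2, 17 genes were higher in PMD-Sen than in DDR-Sen (all genes 4.70%) and 1 lower (all genes 2.61%), which was ATM, with a difference of -0.44 (95% interval -0.73 to -0.16), a call that is lost when all genes are tested. In Ca2+-Sen 16 were higher than in DDR-Sen (all genes 2.47%) and 0 lower (all genes 0.745%, and 0 at an unadjusted p under 0.05). PMD-Sen and Ca2+-Sen again differed in 0 genes in either direction by the normal test (all genes 1.35% lower and 1.03% higher in PMD-Sen), with 2 lower and 1 higher at an unadjusted p under 0.05. With the shared error removed 2 were lower (all genes 4.20%) and 1 higher in PMD-Sen (all genes 5.07%).

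On day 16 Ca2+-Sen stood apart from the others. In all, 12 genes were higher in it than in DDR-Sen (all genes 4.42%) and 0 lower (all genes 1.96%, and 0 at an unadjusted p under 0.05), led by BLM, by 2.55 (95% interval 1.40 to 3.69), and RAD51AP1, by 2.43 (95% interval 1.63 to 3.23). With the shared error removed the count of 12 is 20, beside 10.0% of all genes. PMD-Sen was lower than Ca2+-Sen in 5 genes (all genes 1.97%), namely BRCA2, RAD51AP1, BRIP1, FANCI and H2AX, and higher in 0 (all genes 0.745%, and 1 of the 36 at an unadjusted p under 0.05). The count of 5 is 3 when all genes are tested (all genes 0.914%) and 15 when the shared error is removed (all genes 6.32%). PMD-Sen and DDR-Sen differed in 0 genes in either direction by the normal test (all genes 0.0201% lower and 0.175% higher in PMD-Sen), with 0 lower and 1 higher at an unadjusted p under 0.05. That does not show them alike, since the interval of FANCD2 was 0.22 to 1.86 and that of BLM -0.70 to 2.12. The inducers were not compared with each other on days 3 to 8. On day 8 Ca2+-Sen had 25 genes lower than untreated cells (all genes 17.8%), DDR-Sen 25 (all genes 11.8%) and PMD-Sen 19 (all genes 6.04%).

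The same test was made between days of an inducer, in 6 comparisons. From day 0 to day 1 of PMD-Sen, 18 of the 36 genes went up (all genes 15.6%) and 2 down (all genes 13.4%), the latter TP53BP1 and ATM. BRIP1 rose by 3.29 (95% interval 2.67 to 3.92) and BARD1 by 3.25 (95% interval 2.44 to 4.06). From day 1 to day 16, 25 went down (all genes 10.8%), led by BLM with -2.69 (95% interval -3.90 to -1.48) and XRCC2 with -2.54 (95% interval -3.63 to -1.45), and 1 went up (all genes 8.81%), TP53BP1, by 0.55 (95% interval 0.22 to 0.87). BRIP1 was thus low both on day 0 and on day 16. BRCA2, at 313 on day 0 and 41.6 on day 16, was called lower in 6 PMD-Sen groups, but not on day 0 or day 1.

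In Ca2+-Sen 20 genes went up from day 0 to day 1 (all genes 20.0%), with BLM up by 2.21 (95% interval 1.27 to 3.16) and NBN by 1.43 (95% interval 1.13 to 1.73), and 3 went down (all genes 16.5%), namely FANCC, BRCA2 and TP53BP1, which had been high on day 0. From day 1 to day 16, 1 gene went down, NBN (all genes 3.95%), with 6 down at an unadjusted p under 0.05, 2 with totals set equal (all genes 5.34%) and 8 with the shared error removed (all genes 9.79%), and 0 went up (all genes 5.48%, and 0 at an unadjusted p under 0.05). In DDR-Sen 1 gene went up from day 0 to day 1, NBN, by 0.69 (95% interval 0.36 to 1.02) (all genes 1.28%; 3 with the shared error removed, all genes 6.11%), and 0 went down (all genes 2.27%, and 0 at an unadjusted p under 0.05). From day 1 to day 16 of DDR-Sen 0 went either way by the normal test (all genes 4.03% down and 4.77% up), with 2 down and 3 up at an unadjusted p under 0.05, and 3 down and 4 up with the shared error removed (all genes 10.6% and 9.73%).

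Against untreated cells the 25 genes lower in RS ran from RAD54L (-3.84 ± 0.40), BLM (-3.78 ± 0.52) and RAD51AP1 (-3.65 ± 0.35) to XRCC3 (-0.69 ± 0.22) and NBN (-0.49 ± 0.17). The 11 without a call were PALB2, FANCC, FANCF, FANCL, MRE11, RAD50, RMI2, ATM, ATR, CHEK2 and TP53BP1, between -0.51 for FANCC and 0.22 for TP53BP1. RS was then set against day 16 of each inducer, in 3 comparisons. RS was lower than Ca2+-Sen in 13 of the 36 genes (all genes 2.51%), from CHEK1, with a difference of -0.89 (95% interval -1.36 to -0.43), to BLM, with -2.71 (95% interval -3.94 to -1.49), and higher in 0 (all genes 1.74%, and 0 at an unadjusted p under 0.05). Against PMD-Sen it differed in 0 genes in either direction by the normal test (all genes 0.309% lower and 0.376% higher in RS), with 3 lower and 0 higher at an unadjusted p under 0.05. Against DDR-Sen it also differed in 0 (all genes 0.0537% lower and 0.0940% higher), with 0 in either direction at an unadjusted p under 0.05. For RAD54L, FANCD2 and H2AX the intervals of RS minus DDR-Sen day 16 were -1.46 to 0.86, -0.65 to 0.97 and -0.52 to 0.38.

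The remaining genes of the pathway had medians nearer to 0. A list of 60 other homologous recombination and Fanconi genes had 59 tested, of which 17 were lower and 1 higher in RS (median -0.38), and 21 lower and 3 higher on DDR-Sen day 0 (median -0.38), beside 11.5% and 14.9% of all tested genes lower and 11.6% and 12.9% higher. Over the 8 days the number lower ran from 4 to 18 in PMD-Sen, from 2 to 23 in Ca2+-Sen and from 13 to 23 in DDR-Sen. The lowest of these fell on PMD-Sen day 1 and Ca2+-Sen day 2, where 10.0% and 2.56% of all genes were lower, and the highest on days with 11.5%, 26.5% and 16.7% of all genes lower. On Ca2+-Sen day 0, with 23 lower, 8 were higher (all genes 23.6%). CLSPN, the claspin adaptor of CHEK1, went from 673 to 25.8 (-4.71 ± 0.36) in RS, and POLQ, the polymerase of microhomology-mediated joining, from 390.0 to 22 (-4.15 ± 0.47). UBE2T, the ubiquitin-conjugating enzyme of the Fanconi core, went from 285 to 76.7 (-1.89 ± 0.25) in RS and to 26.3 on DDR-Sen day 0. Of genes that rose, BABAM2, a subunit of the BRCA1-A complex, went from 396 to 665 (0.75 ± 0.24) in RS, the only rise there. On DDR-Sen day 0 the rises were RAD51C, a partner of XRCC3, from 250.2 to 480.0 (0.94 ± 0.21), EME2, a MUS81 partner, from 467 to 651 (0.48 ± 0.16), and WDR48, a cofactor of the deubiquitinase that acts on FANCD2, from 844 to 1096 (0.38 ± 0.13).

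Lists of other repair pathways were counted in the same way, beside 11.5% of all tested genes lower in RS, 14.9% on DDR-Sen day 0 and 26.5% on Ca2+-Sen day 0, and beside 11.6% higher in RS and 12.9% on DDR-Sen day 0. Of 12 end joining genes, 3 were lower in RS and 4 on DDR-Sen day 0, with 0 higher (medians -0.15 and -0.07). PRKDC, the catalytic DNA-dependent protein kinase, went from 9742 to 5899.8 (-0.72 ± 0.17) in RS, and PAXX, a joining scaffold, from 414 to 235 (-0.81 ± 0.18) on DDR-Sen day 0. Of 7 mismatch repair genes 2 were lower in each (medians -0.19 and -0.30), and 6 were lower on Ca2+-Sen day 0 (median -0.90), where 6 of the 12 end joining, 6 of the 17 tested nucleotide excision and 8 of the 20 base excision repair genes were lower too. On Ca2+-Sen day 0, 1 mismatch, 1 end joining, 2 nucleotide excision and 2 base excision repair genes were higher (all genes 23.6%). Of 19 nucleotide excision repair genes 17 were tested, 1 was lower and 1 higher in RS, and 2 were lower and 3 higher on DDR-Sen day 0 (medians 0.01 and 0.11). XPC, the damage sensor of that pathway, went from 1063 to 3048 (1.52 ± 0.13) there and RAD23B, its partner, from 9940.3 to 6601 (-0.59 ± 0.11). In RS ERCC6, which couples repair to transcription, went from 405 to 990.0 (1.29 ± 0.22), and GTF2H3, a subunit of TFIIH, from 924 to 595 (-0.64 ± 0.17). Of 20 base excision repair genes 6 were lower and 0 higher in RS, and 8 lower and 1 higher on DDR-Sen day 0 (medians -0.24 and -0.28). The largest called fall at a mean of at least 100 was that of FEN1, the flap endonuclease that also matures Okazaki fragments, from 946 to 296 (-1.68 ± 0.18) in RS.

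**Figure D5:**
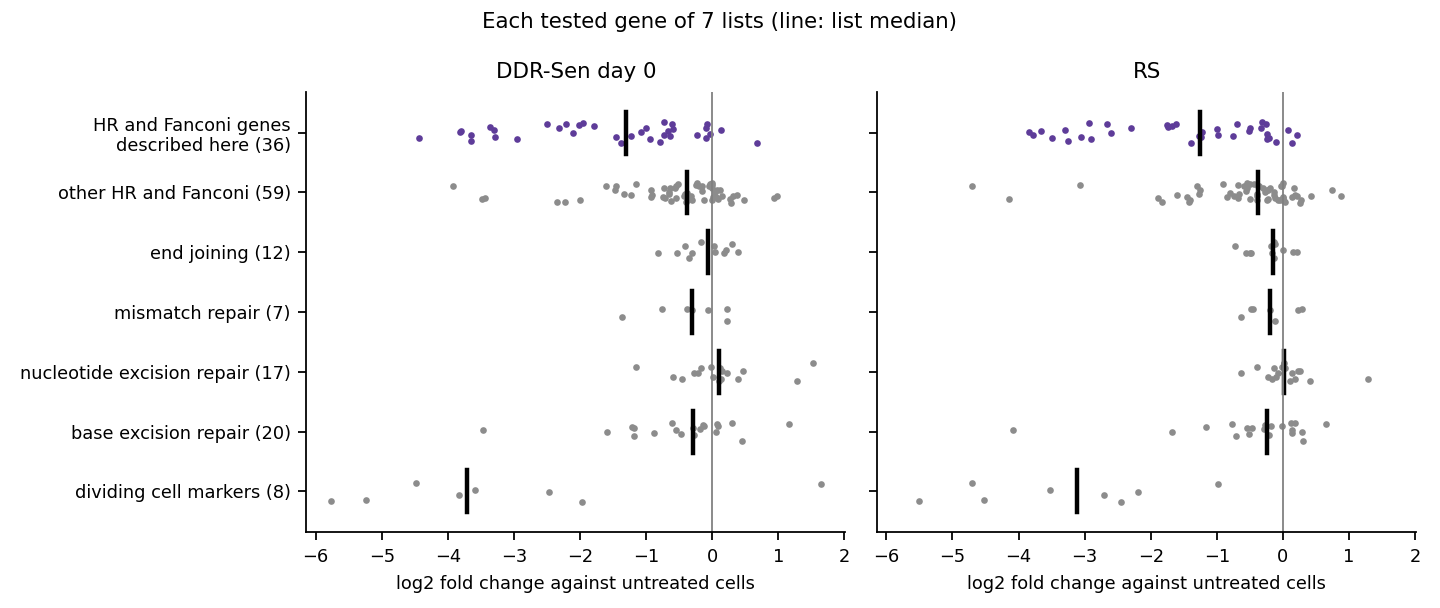
Log2 fold change of each tested gene (dots) against untreated cells on DDR-Sen day 0 and in RS, for the 36 genes described here and for 6 other lists, with the list median as a line and the number of tested genes in brackets. The 36 genes have medians of -1.30 and -1.26, the other repair lists lie between -0.38 and 0.11, and the dividing cell markers at -3.71 and -3.11.

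All fold changes rest on 2 libraries per group and on the same 2 untreated libraries, which the study's methods call independent samples. The labels do not say whether they came from separate cultures, so the p-values measure the spread between these samples, which may be technical.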

How the data were processed

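mRNA was sequenced from WI-38 cells in 26 groups of 2 libraries. The deposited tables, 52 files of which 25 are distinct, were made by the authors with DESeq2 and compare each treated group with the untreated cells. The submitters' processing notes also name Trim Galore, HISAT2, HTSeq, featureCounts and the build GRCh38. Besides a mean of DESeq2-normalized counts, a signal whose size factors were set by the authors, each table holds the authors' log2 fold change, standard error, test statistic and p-value, before and after adjustment. No table gives a value of a single library, so the deposited log2 fold changes and p-values are used as the measurement here, and the deposited adjusted p-values and statistics are not used.

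Group levels were computed from the deposited mean and log2 fold change of each table, and the untreated level was then nearly the same in all 25, with a median SD of 0.00043 on the log2 scale. Depth was computed from the spacing of the lowest levels, since 1 read in 1 library is the smallest step. A gene was tested if its normalized counts averaged 10 or more across the 26 groups. The deposited p-values were adjusted by Benjamini-Hochberg over the 14896 to 14898 of them with a p-value in a comparison and called under 0.05. Differences between conditions were tested by a two-sided normal test of the difference of 2 log2 fold changes, over all tested genes, with 95% intervals. A level was given in every condition for the genes of each role with the largest and the smallest absolute median log2 fold change and for every gene called higher at least once, and other lists are represented by their largest called changes in RS and on DDR-Sen day 0 at a mean of at least 100. The genes and lists were chosen with earlier results of these data known. Some results that this rule would name are not reported here. The code was tested on simulated data. Alternatives were a minimum mean of 100, no minimum, totals set equal, the median of the 8645 genes averaging 200 or more set to 0, and removal of the error of the shared untreated libraries, estimated under a negative binomial variance. The work used SciPy 1.17.1, pandas 2.3.3 and NumPy 2.4.6 under Python 3.11.15, with figures by matplotlib 3.10.9.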

Additional observations from a re-analysis of the deposited data

Results flagged for a closer look

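The number of the 36 tested repair genes whose change against untreated cells differed between inducers on the same day, in either direction at an adjusted p under 0.05 by the normal test of the difference, is given here. On day 0 it was 10 between PMD-Sen and DDR-Sen (all genes 13.6% lower and 15.0% higher in the inducer named first), 17 between Ca2+-Sen and DDR-Sen (18.8% lower and 18.3% higher) and 14 between PMD-Sen and Ca2+-Sen (18.1% lower and 20.5% higher). The first and the last of these are close to the share of all genes. On day 1 it was 23 between PMD-Sen and DDR-Sen (5.45% lower and 6.88% higher) and 19 between Ca2+-Sen and DDR-Sen (3.08% lower and 4.66% higher). On day 2 the numbers were 18 (2.61% lower and 4.70% higher) and 16 (0.745% lower and 2.47% higher). On day 16 it was 12 between Ca2+-Sen and DDR-Sen (1.96% lower and 4.42% higher) and 5 between PMD-Sen and Ca2+-Sen (1.97% lower and 0.745% higher). The summed level of the dividing cell markers on day 0 was higher in DDR-Sen than in PMD-Sen and Ca2+-Sen, with PCNA most of the sum in DDR-Sen. Without PCNA the sum of the other 7 was lower in DDR-Sen, at 1048 normalized counts against 2522 in PMD-Sen and 3818 in Ca2+-Sen, the same direction as the repair genes that were lower in DDR-Sen. On days 1, 2 and 16 the sum with PCNA was lower in DDR-Sen. Its part in these differences was not tested.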

How the results depend on the processing

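No paired analysis was possible because the tables hold no value of a single library, and for the same reason leaving out each replicate in turn was not run. No called value of a named gene changed sign under an alternative, while 9 of 940 recomputed values of named genes without a call changed sign, and the 2 scalings moved the median of all genes by at most 0.062 on the log2 scale. Counts of repair genes that moved by more than 1.5 times are listed, and their causes were not tested where no construction is named. The share of all tested genes called in the same direction under the same setting follows each count in brackets, and in 23 of the 47 counts listed the share of the repair genes was not above it.

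At a mean of at least 100, which leaves 28 genes, the number lower was 4 on Ca2+-Sen day 2 (3.82%), 11 on Ca2+-Sen days 3 and 6 (7.99% and 7.58%) and 14 on DDR-Sen day 3 (9.08%), and the number higher was 1 on Ca2+-Sen day 1 and DDR-Sen day 8 (7.53% and 13.8%). There the differences had 15 genes higher in PMD-Sen than DDR-Sen on day 1 (9.50%), 10 on day 2 (6.62%), 10 higher in Ca2+-Sen than DDR-Sen on day 2 (3.09%), 1 higher on DDR-Sen day 16 than day 1 (6.60%), and 7 lower in RS than Ca2+-Sen day 16 (3.22%). With no minimum, which adjusts over more genes and leaves all 37, PMD-Sen day 1 had 0 lower (4.57%) and 0 higher (4.30%) at an adjusted DESeq2 p under 0.05 (4 and 3 unadjusted), PMD-Sen day 2 had 4 lower (2.93%), Ca2+-Sen day 2 had 1 lower (1.06%), DDR-Sen day 0 had 0 higher (4.86%, and 1 unadjusted), PMD-Sen minus DDR-Sen on day 2 had 0 lower (1.18%, and 1 unadjusted), and PMD-Sen minus Ca2+-Sen on day 16 had 3 lower (0.914%).

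With totals set equal, PMD-Sen day 1 had 0 lower (8.61%), Ca2+-Sen day 1 had 2 higher (7.50%), Ca2+-Sen day 2 had 1 lower (2.28%), days 8 and 16 of DDR-Sen had 1 higher each (10.8% and 15.3%), Ca2+-Sen day 16 minus day 1 had 2 lower (5.34%) and DDR-Sen day 16 minus day 1 had 1 higher (5.27%). With the median of abundant genes set to 0, PMD-Sen day 1 had 1 higher (9.25%), PMD-Sen day 2 had 11 lower (8.68%), Ca2+-Sen day 1 and days 8 and 16 of DDR-Sen had 1 higher each (5.65%, 10.7% and 15.3%), and DDR-Sen day 16 minus day 1 had 1 higher (5.29%).

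Removing the shared untreated error, which shrinks the standard errors, gave more calls. On day 0, PMD-Sen minus DDR-Sen had 1 lower (20.6%) and 17 higher (23.3%), and PMD-Sen minus Ca2+-Sen had 10 lower (25.4%). On day 1, PMD-Sen minus DDR-Sen had 1 lower (10.6%) and PMD-Sen minus Ca2+-Sen 3 higher (5.97%), and on day 2 the latter had 2 lower (4.20%) and 1 higher (5.07%). On day 16, Ca2+-Sen minus DDR-Sen had 20 higher (10.0%) and PMD-Sen minus Ca2+-Sen had 15 lower (6.32%) and 1 higher (3.75%). Between days, PMD-Sen day 16 minus day 1 had 3 higher (15.6%), Ca2+-Sen day 16 minus day 1 had 8 lower (9.79%), DDR-Sen day 1 minus day 0 had 3 higher (6.11%), and DDR-Sen day 16 minus day 1 had 3 lower (10.6%) and 4 higher (9.73%). RS minus PMD-Sen day 16 had 1 lower (2.06%).

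Of the calls of single genes recomputed, 18 were lost with no minimum, 8 with totals set equal and 5 with the median set to 0. Others became stronger, 3 at a mean of at least 100, 4 with totals set equal and 5 with the median set to 0. All comparisons with untreated cells share the shallower untreated libraries, and genes at few counts such as MDC1 and RAD54B had large errors.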
